A study of Rattus norvegicus with 3 samples.

Results

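Reln, Vldlr, Lrp8, Dab1 and Apoe, the core genes of the Reelin pathway and the gene for a lipid carrier that binds the same receptors, were described in cultured commissural neurons of the rat. They were taken by gene symbol from the deposited table, where each of the 5 had 1 entry among 26353. Reln and Apoe were chosen because their values differed strongly between libraries, so those differences are given as a description, without a test. Polyadenylated RNA was sequenced from dissociated commissural neurons of the spinal cord, which send their axons across the ventral midline. They came from rat embryos of embryonic day 13 and were cultured for 2 days. The study holds 1 group of 3 libraries, called libraries 1, 2 and 3 by the replicate numbers in the labels, with no treated or control group and no strain, genotype or sex given. Values are FPKM (fragment numbers per kilobase of transcript, scaled to library size), so levels of different genes are compared per length, and the absolute depth is unknown. Whether the libraries stem from separate cultures or animals is not stated, so p-values cover the spread among these 3 samples alone, and that spread may be technical.

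Reelin is a large secreted glycoprotein that guides the placing of migrating neurons. It binds the lipoprotein receptors encoded by Lrp8 (also called ApoER2) and Vldlr, whose clustering leads Src family kinases to phosphorylate the adaptor Dab1 inside the cell. In the developing spinal cord this pathway is known for its role in the migration of sympathetic preganglionic neurons. Apolipoprotein E carries lipids between cells, binds both receptors and other members of their family, and in nervous tissue is made mainly by glia and macrophages.

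The cultures expressed neuronal genes together with some genes of other cells. Above 1 FPKM, the level used here for detection (limma, one-sided, Benjamini-Hochberg adjusted p under 0.05), lay 10 of 10 pan-neuronal and 4 of 4 commissural axon markers, against 63.7% of all 17611 entries above 0 in at least 1 library. The markers of dorsal classes passed in 4 of 4 (dI1), 4 of 4 (dI2), 3 of 3 (dI3), 4 of 5 (dI4) and 3 of 4 (dI5) genes, and those of V0 in 2 of 2. Radial glia and progenitor markers passed in 9 of 9, proliferation markers in 6 of 6, astrocyte markers in 3 of 6, microglia and macrophage markers in 4 of 12, neural crest glia in 3 of 5, fibroblast and mural in 1 of 6 and erythroid in 1 of 3. Of the 5 endothelial markers 0 passed with limma, also when its p was left unadjusted (0 under 0.05). Library 2 stood apart in 1 respect that touches Reln, its low values for genes with very long transcripts, given below.

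Reln, the ligand (ENSRNOG00000021441), was listed at 51.62 FPKM (library 1), 22.39 FPKM (library 2) and 53.13 FPKM (library 3). It was low in library 2 and nearly equal in the other libraries. Libraries 1 and 3 exceeded library 2 by 2.31-fold and 2.37-fold. Its mean of 42.4 ± 17.3 FPKM (SD, n = 3) was exceeded by 1913 of the 17611 entries.

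Lrp8 (ENSRNOG00000013064), the receptor through which Reelin also acts at synapses, had 34.42, 31.81 and 35.15 FPKM in libraries 1, 2 and 3. Vldlr (ENSRNOG00000027491), the second receptor, had 13.40, 12.99 and 12.53 FPKM. Neither varied much, and the values of the pair did not overlap. Lrp8 averaged 33.8 ± 1.76 FPKM and Vldlr 13.0 ± 0.435 FPKM (SD, n = 3). Within each library Lrp8 exceeded Vldlr, by 2.56-fold, 2.44-fold and 2.79-fold, with a mean of 2.59-fold (95% interval 2.29 to 2.93; limma on the log2 ratio, two-sided, Benjamini-Hochberg adjusted p = 2.99e-12) and in 3 of 3 libraries. Such a test is easily passed at this spread, since 93.7% of all entries differed from Vldlr in it.

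Dab1 (ENSRNOG00000007410), the adaptor that passes the signal on from both receptors, had 16.45, 15.28 and 19.04 FPKM, a mean of 16.9 ± 1.92 (SD, n = 3). It lay between the receptors in every library. Lrp8 exceeded it throughout, with a log2 ratio of Dab1 to Lrp8 of -1.00 (95% interval -1.22 to -0.78; limma, two-sided, Benjamini-Hochberg adjusted p = 5.59e-08, lower in 3 of 3 libraries), where 94.4% of all entries differed from Lrp8. Dab1 exceeded Vldlr by 1.30-fold (1.14 to 1.48; limma, two-sided, Benjamini-Hochberg adjusted p = 6.45e-04) and did so in 3 of 3 libraries. The last difference was small: it did not pass without library 3 (log2 ratio 0.26, limma, Benjamini-Hochberg adjusted p = 0.0800) or against a margin of 1.5-fold. All 3 of Lrp8, Vldlr and Dab1 lay above 1 FPKM (limma, one-sided, Benjamini-Hochberg adjusted p = 1.56e-11, 6.72e-11 and 1.07e-10).

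Apoe (ENSRNOG00000018454) was listed at 3.20 FPKM (library 1), 13.88 FPKM (library 2) and 11.37 FPKM (library 3). It was low in library 1, and the other libraries lay close together. Libraries 2 and 3 exceeded library 1 by 4.34-fold and 3.55-fold. Its mean was 9.48 ± 5.58 FPKM (SD, n = 3).

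**Figure D1:**
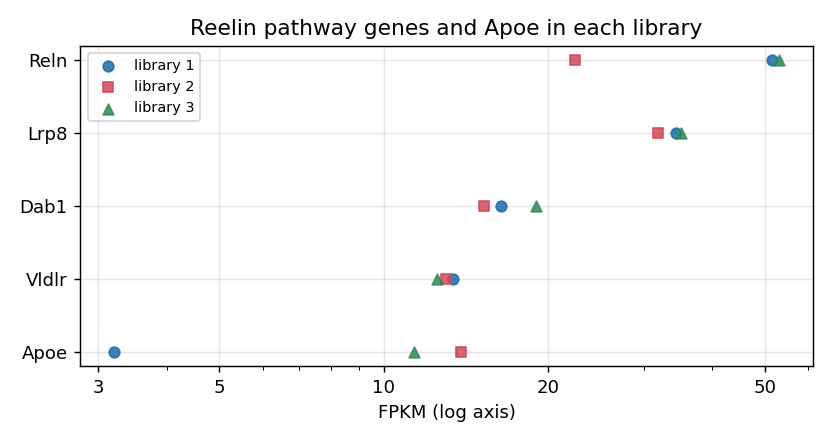
FPKM of each gene (log axis) in libraries 1, 2 and 3, 1 point per library, with genes ordered by their mean. Reln is low in library 2 (22.39 FPKM) and Apoe in library 1 (3.20 FPKM), while the 3 points of Lrp8, Dab1 and Vldlr lie close together.

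By mean level the order was Reln, Lrp8, Dab1, Vldlr and Apoe, and libraries 1 and 3 had this order too. Library 2 did not, because there Reln lay below Lrp8 and Apoe above Vldlr. Reln stood at 1.5 and 1.51 times the level of Lrp8 in libraries 1 and 3, and at 0.704 times in library 2. Apoe stood at 0.239 times the level of Vldlr in library 1, 1.07 times in library 2 and 0.907 times in library 3. Neither pair of neighbours kept its order across libraries, whereas Lrp8, Dab1 and Vldlr did. Reln stood at 16.1 times the level of Apoe in library 1, but at 1.61 times and 4.67 times in libraries 2 and 3.

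The spread between libraries was therefore very unequal among these genes. The highest library exceeded the lowest by 4.24-fold for Apoe and 2.37-fold for Reln, by 1.24-fold for Dab1, 1.1-fold for Lrp8 and 1.07-fold for Vldlr, on the log2(FPKM + 0.1) scale, which understates differences of low genes. Across the 11662 entries with a mean of at least 1 FPKM the median was 1.19-fold, and 2.50% of them differed by more than 2-fold, as did 2 of the 5 genes, Reln and Apoe, which were chosen on this measure. Wider ranges than that of Apoe were found in 104 of these entries and wider ranges than that of Reln in 197. In the values as deposited, 9110 entries had a wider range than Lrp8 and 10361 a wider range than Vldlr. Without library 2 the range of Reln shrank to 0.04 on the log2 scale, and without library 1 that of Apoe shrank to 0.29, so each rests on 1 library. The log2 range of Reln was 1.24 as deposited. It was 1.33 with the libraries rescaled to a common upper quartile and 1.37 with a common median ratio. With the libraries rescaled to a common sum of FPKM, it dropped to 0.87, below 2-fold. The same scaling gave log2 ranges of 0.45 for Vldlr, 0.25 for Lrp8 and 0.22 for Dab1, against 0.10, 0.14 and 0.32 as deposited, so the order of these 3 by spread depends on the scaling.

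In library 2 the low Reln value went with low values of other genes with very long transcripts, to which Reln belongs. On the log2(FPKM + 0.1) scale Reln lay -1.22 from the mean of the other libraries in library 2. The 23 matched genes of a list of very long transcripts, among them those for cytoskeletal linkers, giant cadherins and ubiquitin ligases, lay at a median of -0.94, from -1.29 to -0.26. All 23 were lowest in library 2, as were 21.5% of the 11662 entries with a mean of at least 1 FPKM. Reln was lower than 21 of the 23, since 2 had a deviation below its own. The median deviation of all these entries was 0.13, so that relative to it Reln stood at -1.35 and the list at -1.07. Reln stood at 2.75, 2.36 and 2.80 times the median FPKM of the list in libraries 1, 2 and 3, a narrower range than that of Reln alone. The part of transcript length in the low value of Reln was not tested, and in RNA of whole cultures fewer cells of a type and less RNA per cell cannot be told apart.

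**Figure D2:**
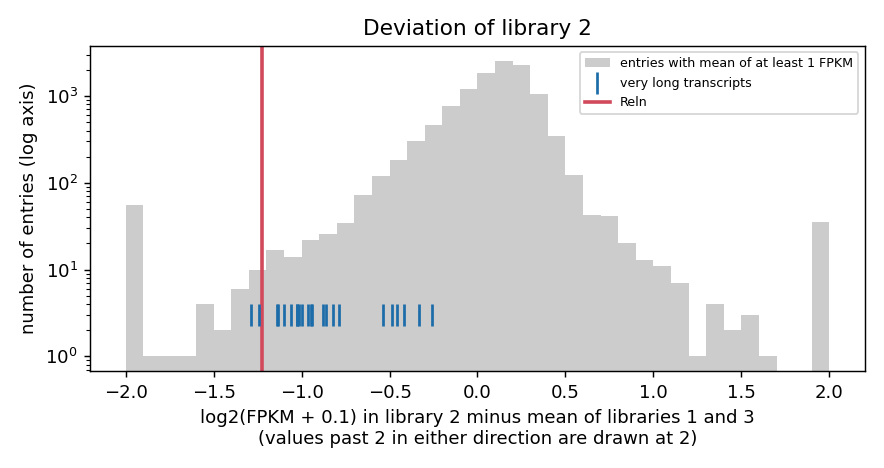
Grey bars count the 11662 entries with a mean of at least 1 FPKM (log axis) by the log2(FPKM + 0.1) value in library 2 minus the mean of libraries 1 and 3; blue ticks are the 23 very long transcripts, set at an arbitrary height, and the red line is Reln. Reln at -1.22 lies at the low end of the ticks, which run from -1.29 to -0.26.

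Other genes share the pattern of Reln closely. The 5 entries nearest to it among 8363 with a symbol and a mean of at least 5 FPKM, by Euclidean distance of the 3 log2 deviations from their own mean, were Fat3 (0.0471), Srrm2 (0.0944), Leng8 (0.0951), Lrp1 (0.112) and Dync1h1 (0.145). Fat3 encodes a giant cadherin, Lrp1 a large receptor of the LDL receptor family and Dync1h1 the dynein heavy chain, and these 3 stand on the list of very long transcripts. Fat3 had 11.99, 4.97 and 11.82 FPKM in libraries 1, 2 and 3. Srrm2, which encodes a protein of the splicing machinery, had 139.77, 66.35 and 146.87 FPKM. With 3 libraries many genes can share such a pattern. The summed markers of the dorsal neuron classes dI1 to dI5 were lowest in library 1. So were 42.9% of all single entries with a mean of at least 1 FPKM. Single markers such as Lhx9, Foxp2 and Gad1 were lowest in library 2. The summed levels of dI1 markers were 109.8, 116.9 and 115.2 FPKM in libraries 1, 2 and 3, those of dI2 112.2, 127.1 and 120.7, and those of dI5 57.5, 75.6 and 66.8. The 2 V0 markers summed to 5.09, 3.98 and 4.87 FPKM but ran in opposite directions. Evx2 was lowest in library 2 (3.28, 2.10 and 3.47 FPKM), whereas Evx1 was highest there (1.81, 1.88 and 1.40 FPKM). The 4 commissural axon markers summed to 245.4, 171.8 and 252.1 FPKM. Of these markers 3 were lowest in library 2, as were 21.5% of all entries with a mean of at least 1 FPKM. Whether these cells' share bears on Reln was not tested.

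In library 1 the low Apoe value went with low values of macrophage genes. Apoe lay -1.94 from the mean of the other libraries in library 1 on the log2(FPKM + 0.1) scale. The 12 microglia and macrophage markers summed to 18.0 FPKM in library 1, against 35.3 and 31.1 FPKM in libraries 2 and 3. Of these markers 10 of 12 were lowest in library 1. The 5 with a mean of at least 1 FPKM, namely Fcer1g, Aif1, Tyrobp, Csf1r and Cd68, were all among them, with deviations from -1.14 to -0.57, while 42.9% of all entries of that mean were lowest there. Apoe deviated more than each of the 5, but less than the low genes C1qb and C1qa of the same list, which lay at -2.53 and -2.29 in library 1. Relative to the sum of the 12 markers Apoe stood at 0.177 in library 1, 0.394 in library 2 and 0.365 in library 3. C1qb had 0.08, 0.92 and 0.96 FPKM in libraries 1, 2 and 3. C1qa and Trem2 were listed at 0 in library 1, with 0.28 and 0.53 FPKM of C1qa and 0.03 and 0.04 FPKM of Trem2 in libraries 2 and 3, and Cx3cr1 had 0.22, 0.35 and 0.15 FPKM.

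Genes of glia and progenitors with a mean of at least 1 FPKM varied much less than Apoe. The 9 radial glia and progenitor markers summed to 961.7, 1218 and 991.2 FPKM in libraries 1, 2 and 3, mostly from Fabp7 and Vim. Of these markers 5 were lowest in library 1 and 4 in library 3, and Hes1 (5.19, 4.77 and 3.05 FPKM) was highest in library 1. Of all entries with a mean of at least 1 FPKM, 42.9% were lowest in library 1. The 6 astrocyte markers summed to 35.8, 35.8 and 37.5 FPKM, mostly from Slc1a2 (27.16, 24.72 and 27.83 FPKM), which was lowest in library 2. Of the 3 with a mean of at least 1 FPKM, 2 were lowest in library 1, Gja1 and Aldh1l1 (2.71, 3.64 and 3.25 FPKM). The low astrocyte gene S100b had 0.29, 0.45 and 0.07 FPKM. Slc1a3, a glutamate transporter of radial glia and astrocytes, had 21.29, 22.52 and 22.32 FPKM, and the gap junction gene Gja1 had 5.48, 6.92 and 6.25. Erythroid markers summed to 57.8, 31.7 and 13.1 FPKM, nearly all of it from Hba1 (56.90, 30.23 and 12.44 FPKM). The low genes Hbb (0.69, 1.20 and 0.62 FPKM) and Alas2 (0.22, 0.24 and 0.04 FPKM) were highest in library 2. The 6 fibroblast and mural markers summed to 3.63, 4.13 and 3.13 FPKM, with Dcn listed at 0 in every library, and the neural crest glia markers to 24.9, 25.6 and 25.2, with Sox10 listed at 0, 0.03 and 0. The part of macrophages in the difference of Apoe was not tested.

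The 5 entries nearest to Apoe by the same measure were Fcer1g (0.650), Gng12 (0.738), Resp18 (0.832), Lyz2 (0.862) and Blvra (0.919). None came as near as the neighbours of Reln did. Fcer1g, the gamma chain of Fc receptors and a member of the macrophage list, had 5.30, 13.23 and 10.59 FPKM in libraries 1, 2 and 3. Lyz2, which encodes a lysozyme of macrophages, had 6.57, 15.56 and 10.12 FPKM. Gng12 had 2.74, 5.84 and 7.86 FPKM, Resp18 5.55, 10.50 and 12.44, and Blvra 5.15, 13.13 and 7.34. All 5 were lowest in library 1, which follows from their choice by nearness to Apoe.

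**Figure D3:**
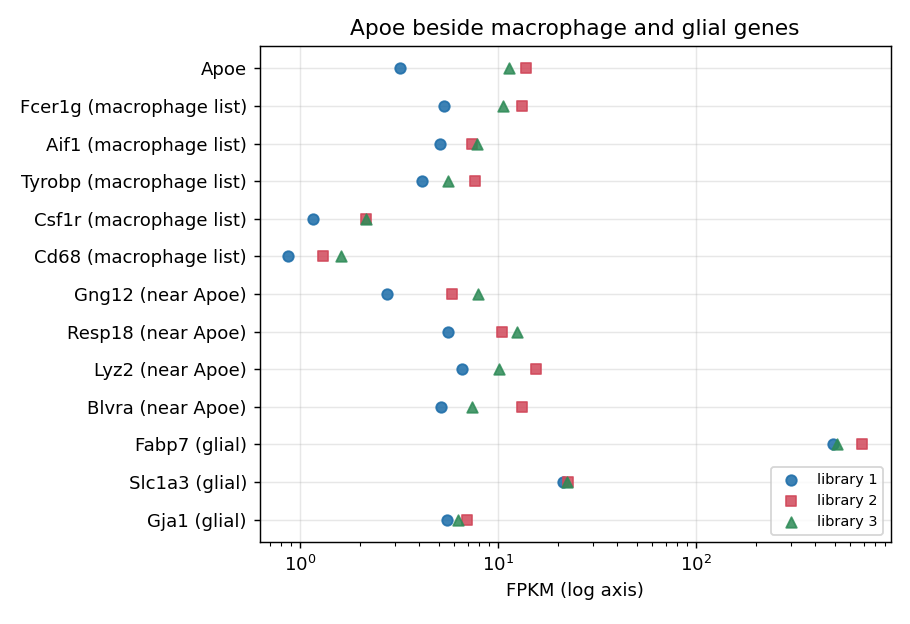
FPKM (log axis) in libraries 1, 2 and 3, 1 point per library, of Apoe, the 5 macrophage list genes with a mean of at least 1 FPKM, other genes near Apoe in pattern, and 3 glial genes. Apoe and the macrophage genes have their lowest point in library 1, by a wider gap for Apoe (3.20 FPKM against 13.88 and 11.37). The 3 glial genes drawn, Fabp7, Gja1 and Slc1a3, are also lowest in library 1, by narrower gaps than Apoe, and the points of Slc1a3 nearly coincide. Of the 9 radial glia and progenitor markers, 5 were lowest in library 1 and 4 in library 3. The astrocyte gene Slc1a2, not drawn, was lowest in library 2.

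Genes that act beside these 5 were read from lists, and 51 of 65 matched genes (78.5%) lay above 1 FPKM, against 63.7% of all entries. All 28 genes of the list of Dab1 kinases, adaptors and effectors passed. The highest was Cfl1, the actin-severing cofilin, at 1107 ± 124 FPKM (SD, n = 3, as for all means here). Next came Cdk5r1, the activator of Cdk5, at 175.7 ± 10.6, and Pafah1b3, a catalytic subunit of the acetylhydrolase complex, at 125.1 ± 17.3. Fyn, the main kinase of Dab1, had 120.5 ± 8.0 FPKM, Pafah1b2 118.6 ± 9.02 and Pafah1b1, the Lis1 gene whose product binds dynein, 117.3 ± 2.70. The lowest were Yes1 at 7.52 ± 0.327 and Pik3cb at 5.40 ± 0.0493 FPKM. None of the 28 differed by more than 1.5-fold between libraries, against 7.98% of all entries with a mean of at least 1 FPKM. In library 2, 20 of the 28 had their highest value, against 62.1% of those entries. Their median log2 deviation in library 2 was 0.15, close to the 0.13 of all those entries.

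Genes for the breakdown of Dab1 and for the recycling or breakdown of the receptors passed in 4 of 5 cases. Rnf7 (51.5 ± 4.82 FPKM) and Cul5 (17.9 ± 1.84) encode parts of the ubiquitin ligase that removes active Dab1, and Socs7 (18.0 ± 0.567) its substrate adaptor. Snx17, a sorting nexin that recycles the receptors, had 50.2 ± 7.39 FPKM. Mylip, a ligase that degrades Lrp8 and Vldlr, had 0.787 ± 0.162 FPKM and did not pass. Of the proteases that cleave Reelin, 3 of 5 passed. Plat, tissue plasminogen activator, had 12.1 ± 0.979 FPKM, Adamts3 3.58 ± 0.271 and Adamts5 1.68 ± 0.205, while Adamts2 had 0.613 ± 0.164 and Adamts4 0.0533 ± 0.00577.

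The other LDL receptor family genes reported here passed in 6 of 8 cases. Lrpap1, the chaperone of these receptors, had 37.3 ± 5.08 FPKM, close to Lrp8. Lrp1, a receptor that takes up Apoe-bearing particles, had 34.91, 16.06 and 34.19 FPKM in libraries 1, 2 and 3. It was low in library 2 like Reln, and it stands on the list of very long transcripts. Lrp4, a receptor for agrin, had 11.8 ± 1.06, Lrp6, a Wnt co-receptor, 10.7 ± 1.22, the sorting receptor Sorl1 5.67 ± 1.23 and Lrp2 2.32 ± 0.539 FPKM. Lrp5, the other Wnt co-receptor, had 1.00 ± 0.0153 FPKM and did not pass, nor did Lrp1b (0.217 ± 0.123). Of the 7 listed genes with a mean of at least 1 FPKM, all but the chaperone gene Lrpap1 were lowest in library 2, against 21.5% of all entries of that mean. The size of the drop differed widely. On the log2(FPKM + 0.1) scale the deviation in library 2 was -1.10 for Lrp1, -0.60 for Lrp2 and -0.57 for Sorl1. It was -0.28 for Lrp6, -0.13 for Lrp4 and only -0.03 for Lrp5. Lrp8 had a higher mean (33.8 FPKM) than each of these receptors, although Lrp1 slightly exceeded it in library 1 (34.91 against 34.42 FPKM). Vldlr (13.0 FPKM) came next after Lrp1 by mean, although Lrp4 exceeded it in library 3 (12.98 against 12.53 FPKM).

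All 8 other proposed ligands and partners passed. Those of the ephrin-B type, reported to bind Reelin, were Efnb3 at 43.3 ± 3.62, Efnb2 at 36.1 ± 1.76 and Efnb1 at 25.7 ± 1.54 FPKM. The integrin subunit genes Itgb1 and Itga3 had 35.3 ± 1.81 and 6.57 ± 0.896 FPKM, and Nrp1, a semaphorin receptor, 10.8 ± 0.644. Thbs1, a thrombospondin that binds the receptors, had 9.85 ± 1.40 FPKM and Clu, another apolipoprotein, 2.15 ± 0.387.

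Genes for lipoproteins and cholesterol export were mostly low, and 2 of 11 passed. Nr1h2, a nuclear receptor for oxysterols, had 20.02 ± 1.11 FPKM and the exporter Abcg1 8.38 ± 0.342. Abca1, the exporter that loads lipid onto Apoe, had 1.31 ± 0.371 (limma, one-sided, Benjamini-Hochberg adjusted p = 0.0729) and Lpl 1.08 ± 0.150. The other apolipoprotein genes of this list lay below Apoe in each library: Apod had 0.313 ± 0.120 FPKM, Apoa1 0.170 ± 0.105 and Apob 0.00667 ± 0.00577, and Apoc1 was listed at 0, 0.16 and 0. Apoc2 was listed at 0.08, 0 and 0 and Lcat at 0.09, 0 and 0, while Nr1h3 had 0.507 ± 0.0751.

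**Figure D4:**
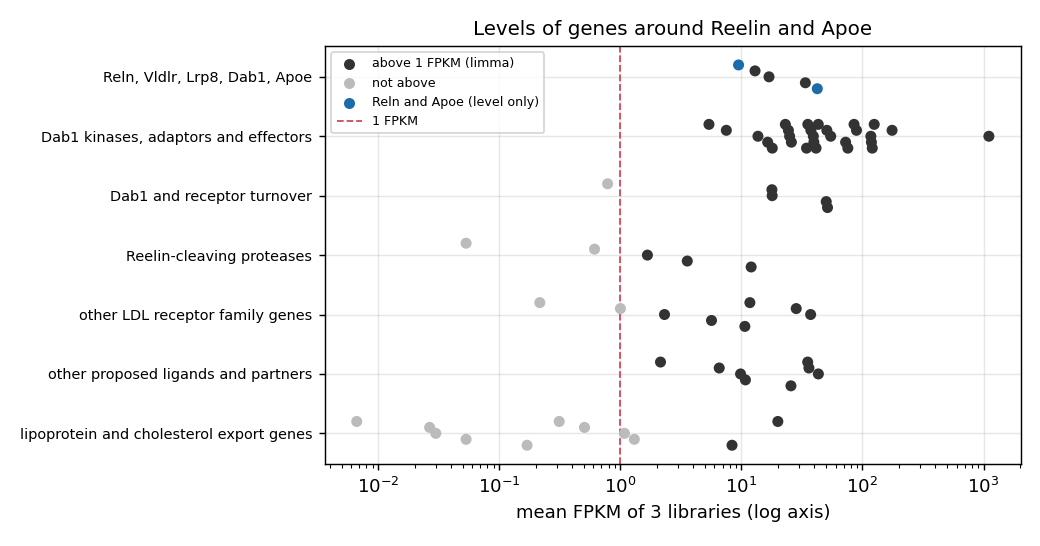
Mean FPKM of the 3 libraries (log axis) for each matched gene, in rows by list; black points lay above 1 FPKM in limma's test, grey points did not, blue points are Reln and Apoe, given as levels, and the dashed line marks 1 FPKM. All 28 Dab1 kinases, adaptors and effectors lie above the line, while 9 of 11 genes of lipoproteins and cholesterol export did not pass.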

How the data were processed

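FPKM values of the 3 libraries stand in a single table that the authors deposited, keyed by Ensembl gene ID. Per the labels' protocols, stranded libraries of polyadenylated RNA were read in pairs of 50 bp. STAR, Trimmomatic 0.22, FastQC and the build rn6 are named in the submitters' processing notes. The FPKM tool, annotation and strand setting were not given in the sources used here.

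All tests ran on log2(FPKM + 0.1) without rescaling. Levels were tested against 1 FPKM with limma 3.58.1 (R 4.3.3, statmod 1.5.0; intercept only, robust prior with trend, one-sided) over the 17611 entries above 0 in at least 1 library. Ratios were tested with limma, two-sided, by fitting every entry's within-library log2 ratio to Vldlr or to Lrp8. P-values were Benjamini-Hochberg adjusted over all entries at 0.05. Both tests were tried on simulated data with independent noise. Those data held no shift shared by many genes of a library, so they do not cover such shifts.

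The members, lists, tests and the rule for named genes were chosen with earlier results of these data known, the list of very long transcripts included. The rule named the members, the genes of the smaller pathway lists, and the 6 highest and 2 lowest Dab1 kinases, adaptors and effectors. It also named the 5 nearest patterns of Reln and of Apoe. Marker lists are given mostly as counts and sums. Some list genes are not reported here and are left out of all list counts. Of the others, 3 matched no symbol or RefSeq synonym (assembly GRCr8, used for names alone) and were not analysed here: Selenop, Hbb-bs and Syne2. Of entries sharing a symbol the one with the highest mean was taken. Foxd3, Pou4f1, Tlx3 and Lbx1 can mark more than 1 class. Alternatives were other pseudocounts, filters, scalings, levels, priors and each library left out. Planned bins of protein length were not used here. Figures were drawn with matplotlib 3.10.9.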

Additional observations from a re-analysis of the deposited data

How the results depend on the processing

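The calls of Lrp8, Vldlr and Dab1 above 1 FPKM held under every alternative tried, as did the ratios of Lrp8 to Vldlr and of Dab1 to Lrp8. The ratio of Dab1 to Vldlr failed against a margin of 1.5-fold (log2 ratio 0.38) and without library 3, and ranged from 0.26 to 0.45 when each library was left out. The count of the 5 genes past 2-fold between libraries was 1 instead of 2 with libraries rescaled to a common sum, and 1 to 2 when each library was left out, as was the count past 1.5-fold. Library deviations were put through the scalings and pseudocounts after the data were seen; the common sum moved the median of very long transcripts in library 2 to -0.58; there the median of all entries was 0.49 and Reln stood at -0.86. With a common median ratio the log2 ranges of Vldlr and Lrp8 were 0.19 and 0.27. Apoe in library 1 lay between -2.07 and -1.69 under all scalings and pseudocounts. At 0.5 FPKM, 4 lipoprotein and cholesterol export genes passed instead of 2, and at 5 FPKM 1 Reelin-cleaving protease instead of 3. No paired analysis was possible because all libraries form 1 group. FPKM keeps no depth, so no counting error could be given.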
